A study of Mus musculus with 15 samples.

Results

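A set of 10 genes of the bone morphogenetic protein (BMP) pathway was followed through mouse brain tumours of 2 kinds: the ligand genes Bmp2, Bmp4 and Bmp7, the type I receptor genes Bmpr1a and Bmpr1b, the intracellular inhibitor Smad6, and the inhibitor of DNA binding genes Id1, Id2, Id3 and Id4. They were chosen by name as genes of this pathway, and all 10 were found among the 24421 genes of the tables. All 10 also had a mean of at least 10 normalized reads in each comparison, so none was lost to the filter on low values. RNA-seq libraries came from high-grade glioma (HGG) and ependymoma (EPN) models, 3 in each of 5 groups: HGG control, HGG Sox9-LOF (loss of function), HGG Sox9-GOF (gain of function), EPN control and EPN Sox9-GOF. SOX9 is a transcription factor that acts in developing glia and cartilage, and by its title the study asked how it acts in different brain tumour types. The labels give no strain, age, promoter, tumour-initiating alleles or manner of changing Sox9, and do not say whether the 3 libraries of a group came from separate animals, so p-values measure only the spread between these libraries.

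BMP ligands are secreted dimers that bring type I and type II receptors together, and the type I receptor then phosphorylates SMAD1, SMAD5 and SMAD9, which enter the nucleus with SMAD4. The Id genes are classical direct targets of these SMADs: ID proteins bind E proteins such as TCF3, TCF4 and TCF12 and keep them and their partners off DNA. SMAD6 is induced by the same signal and damps it. In neural tissue the pathway is known for favouring astrocytic differentiation and for restraining oligodendrocyte and neuronal fates.

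Promoter windows show the kind of sequence through which these SMADs act. The 250 bases before the annotated start were searched on both strands for GGCGCC, a GC-rich SMAD1/5 site, for the bipartite BMP response element (a GC-rich part and GTCT, separated by 5 free bases), and for GTCTAGAC, the palindromic SMAD box. Entries were present for 7 of the 10 genes. GGCGCC was in the window of Bmpr1a, Id2 and Id4 and in 9.59% of 32851 promoters. Annotated exons covered 141 of the 250 bases of the Bmpr1a window, 161 of the Id2 window and all 250 of the Id3 window. The BMP response element was in that of Smad6, from -15 to -1 relative to the start, and in 0.511% of all promoters. GTCTAGAC was in 0.167% of all promoters and in none of the 7. The windows of Smad6, Bmpr1b and Id4 are printed, 1 for each role the results turn on among those that lie outside annotated exons (RefSeq, GRCm38.p6, 5′ to 3′ on the strand of the gene, with a motif in capitals). No match was found for these letters in the Bmpr1b window, which had 46.8% G and C against 66.8% in Smad6 and 75.6% in Id4. A match describes letters and does not show a bound site.
Smad6 at chr9:64022060-64022309, minus strand, BMP response element in capitals: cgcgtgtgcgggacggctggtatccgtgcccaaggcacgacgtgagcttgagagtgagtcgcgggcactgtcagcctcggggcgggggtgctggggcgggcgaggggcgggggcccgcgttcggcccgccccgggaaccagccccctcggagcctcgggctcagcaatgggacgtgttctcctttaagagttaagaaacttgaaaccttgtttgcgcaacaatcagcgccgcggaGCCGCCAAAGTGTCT
Bmpr1b, first of its 3 annotated starts, at chr3:141982265-141982514, minus strand: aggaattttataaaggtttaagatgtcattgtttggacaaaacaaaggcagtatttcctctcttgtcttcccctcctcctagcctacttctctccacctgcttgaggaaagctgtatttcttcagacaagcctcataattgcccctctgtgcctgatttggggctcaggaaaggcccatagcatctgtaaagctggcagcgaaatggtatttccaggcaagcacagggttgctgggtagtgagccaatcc
Id4 at chr13:48260866-48261115, plus strand, GGCGCC from -148 to -143 in capitals: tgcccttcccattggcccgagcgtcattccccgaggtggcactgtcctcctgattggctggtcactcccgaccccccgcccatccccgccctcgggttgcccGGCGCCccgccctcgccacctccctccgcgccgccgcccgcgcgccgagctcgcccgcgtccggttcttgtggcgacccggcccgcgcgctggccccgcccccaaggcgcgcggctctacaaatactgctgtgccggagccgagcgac

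Before the pathway genes were compared, the libraries were checked. They held 4665428 to 14119140 reads assigned to genes, the fewest in HGG control 2, and levels are given as rescaled read counts, that is reads divided by 1 size factor per library computed over all 15. Sox9 itself stood at 218, 285 and 310 in HGG control libraries 1 to 3, against 1275, 1537 and 1391 in HGG Sox9-GOF. In EPN it stood at 1045, 1040 and 1189 in controls against 2055, 1834 and 2692 in Sox9-GOF. It went against 1 label, since the HGG libraries labelled Sox9-LOF held 739, 579 and 395, each above every HGG control, so no direction of Sox9 function is read from them. Markers of astrocytes were present in every group (10 of 10), with summed levels of 11522 to 52347 in HGG controls and 40272 to 47183 in EPN controls. HGG control 1 stood apart from the other 2 HGG controls by its choroid plexus markers, which summed to 111223 against 215 and 1050. Library 3 of those labelled Sox9-LOF and HGG Sox9-GOF 3 also held them, at 25183 and 10094. The other libraries of these groups held 144 to 511. HGG control 1 also had the lowest astrocyte markers of the HGG controls (11522 against 41286 and 52347). Its neuron markers were the lowest too (6516 against 14257 and 45227), and its cycling markers the highest (11996 against 3592 and 3902). In bulk tumour pieces such as these, fewer cells of a type and less RNA per cell cannot be told apart.

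In HGG, Bmpr1a and Bmpr1b were higher than in every control in each library labelled Sox9-LOF and each Sox9-GOF library, while Id1 and Id3 were lower in every Sox9-GOF library. In EPN, Bmpr1b and Bmp4 were lower in every Sox9-GOF library than in every control. None of these differences passed limma's test across all genes with Benjamini-Hochberg adjustment at 0.05. Between the control groups, Bmp7, Smad6 and Bmpr1a were called higher in EPN than in HGG. The Sox9-GOF effect on Bmpr1b was called different between the 2 models.

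The counts are to be read against all genes tested. For the libraries labelled Sox9-LOF against HGG controls, limma called 0 of 10 pathway genes (background 0%, 0 of 14861), with 2 at an unadjusted p under 0.05 (background 17.3%), 1 by DESeq2 (background 9.02%) and 0 by edgeR (background 0%). Groups did not overlap for 2 of 10 genes (background 24.5%), both higher (background 12.8%). For HGG Sox9-GOF against the same HGG controls, limma called 0 of 10 (background 0%, 0 of 15092), with 4 at an unadjusted p under 0.05 (background 22.7%), 2 by DESeq2 (background 15%) and 0 by edgeR (background 0%), and 4 of 10 did not overlap (background 30.5%), 2 higher (background 15.3%) and 2 lower (background 15.2%). For EPN Sox9-GOF against EPN controls, limma called 0 of 10 (background 0%, 0 of 14591), with 2 at an unadjusted p under 0.05 (background 15.1%), 1 by DESeq2 (background 5.68%) and 0 by edgeR (background 0%), and 2 of 10 did not overlap (background 22%), both lower (background 12.5%). EPN controls against HGG controls gave 3 of 10 called, all higher (background 9.51% higher, 15.3% in either direction), with 4 at an unadjusted p under 0.05 (background 33.3%), 4 by DESeq2 (background 28.9%) and 4 by edgeR (background 14.8%). There, 4 of 10 did not overlap (background 40.3%), 3 higher (background 21.9%) and 1 lower (background 18.4%). The difference between the Sox9-GOF effects was called for 1 of 10, lower (background 3.23% lower, 6.07% in either direction), with 3 at an unadjusted p under 0.05 (background 27.1%), 2 by DESeq2 (background 16.2%) and 1 by edgeR (background 5.1%). In the 3 Sox9 comparisons these counts differed from what the background share would give by under 2 of the 10 genes, and nothing about the 10 as a group is read from them. Their median log2 fold change was -0.17 in the libraries labelled Sox9-LOF, -0.74 in HGG Sox9-GOF and -0.27 in EPN Sox9-GOF, beside 0.011, 0.033 and 0.045 for all genes.

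**Figure D1:**
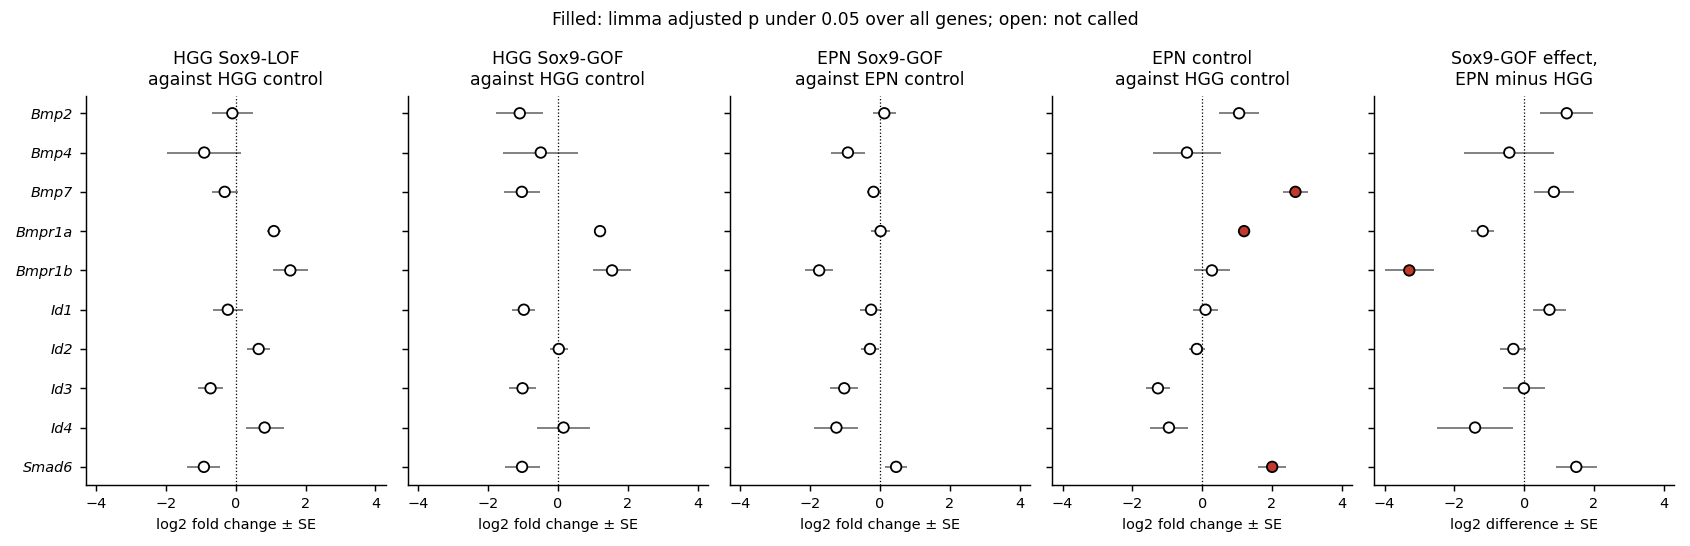
Log2 fold change (x axis, bars ± SE) of the 10 genes (y axis) in each comparison, with 3 libraries a group and 4 groups in the last panel; filled points passed limma at an adjusted p of 0.05 over all genes. Bmp7, Bmpr1a and Smad6 are filled between the controls, Bmpr1b in the difference of the Sox9-GOF effects, and every point of the first 3 panels is open.

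Among the ligands, Bmp7 (chr2:172868012-172940321, minus strand, mm10) had the largest difference between the 2 control groups of the 10 genes. It encodes a ligand that signals largely through ACVR1 and the BMPR1 receptors. Bmp7 levels were 479, 757 and 310 in HGG controls against 3071, 2469 and 3843 in EPN controls. The groups were far apart, and the log2 difference was 2.67 ± 0.35 (SE, n = 3 a group, limma adjusted p = 0.0077), or 6.37-fold. In the order of group means, the 3 HGG groups came lowest and overlapped each other (256 to 515), and both EPN groups came highest and overlapped (2623 and 3128). With Sox9-GOF, Bmp7 was 124, 389 and 256 in HGG (log2 -1.04 ± 0.51, limma adjusted p = 0.284) and 2876, 2454 and 2540 in EPN (-0.19 ± 0.20, limma adjusted p = 0.72). Both sets overlapped their controls. In HGG, Bmp7 was lower with Sox9-GOF in each of the 3 same-numbered pairs, and the replicate block gave a limma adjusted p of 0.18.

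Bmp2 and Bmp4, the 2 closely related ligands best known for inducing astrocytic fate, were far less abundant and varied more. Bmp2 ranged from 13.9 in HGG Sox9-GOF 2 to 148 in EPN control 1, with group means of 22.8 ± 14.5 (SD, n = 3) in HGG Sox9-GOF, 52.1 ± 31.0 in HGG controls and 99.9 ± 41.8 in EPN controls. It rested on 10 reads in HGG control 2. Bmp4 was 271, 396 and 29.8 in the 3 HGG controls, a spread as wide as any difference from them. Its log2 differences were -0.91 ± 1.06 for the libraries labelled Sox9-LOF and -0.49 ± 1.08 with HGG Sox9-GOF, both overlapping the controls. In EPN it was 175, 86.8 and 85.6 in controls and 27.4, 81.1 and 75.9 with Sox9-GOF. Those 2 groups did not overlap, but the log2 difference of -0.92 ± 0.50 missed the threshold (limma adjusted p = 0.449).

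Of the receptors, Bmpr1a, the gene of the broadly expressed type I receptor (chr14:34410734-34503341, minus strand), was lowest in the HGG controls. It stood at 659, 681 and 594 there, at 1640, 1344 and 1182 in the libraries labelled Sox9-LOF, and at 1588, 1397 and 1408 with HGG Sox9-GOF. Both sets lay above all 3 controls, which they share, with log2 differences of 1.09 ± 0.20 (limma adjusted p = 0.143) and 1.21 ± 0.17 (limma adjusted p = 0.0594). DESeq2 on the recovered reads called both (adjusted p = 0.000106 and 6.6e-10). The EPN controls, at 1260, 1741 and 1476, were also above every HGG control, and here the log2 difference of 1.20 ± 0.18 was called by limma (adjusted p = 0.0107). That call was lost without EPN control 2 (limma adjusted p = 0.0617) or EPN control 3 (0.0526). The correction for transcript GC content and length described further on took the difference to 0.77, and the call was lost when the replicate block was added to it (limma adjusted p = 0.0865). With EPN Sox9-GOF the values of 1653, 978 and 1877 straddled the controls (log2 0.015 ± 0.27, limma adjusted p = 0.987). In the order of means the HGG controls came first at 645, and the other 4 groups, from 1389 to 1502, overlapped their neighbours.

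Bmpr1b, the gene of the type I receptor with the more restricted expression (chr3:141837136-142169425, minus strand), lay on opposite sides of its controls with Sox9-GOF in the 2 models. Its levels were 56.3, 182 and 155 in HGG controls, 313, 271 and 498 for the libraries labelled Sox9-LOF, and 206, 368 and 511 with HGG Sox9-GOF. Both sets were above all 3 controls, by 1.56 ± 0.50 and 1.55 ± 0.54 on the log2 scale, and neither passed (limma adjusted p = 0.205 and 0.165). In EPN the controls held 93.0, 154 and 199 and the Sox9-GOF libraries 37.5, 58.4 and 29.8. All 3 were below every control, by a log2 difference of -1.75 ± 0.39 that missed the threshold in limma (adjusted p = 0.152) and passed it in DESeq2 (adjusted p = 0.00382). The 2 control groups overlapped (log2 0.28 ± 0.53, limma adjusted p = 0.746).

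The difference of the Sox9-GOF effects on Bmpr1b, EPN minus HGG, was -3.30 ± 0.71 on the log2 scale (limma adjusted p = 0.0283, 12 libraries). This was the 1 call of the 10 genes in this contrast. It was lost without HGG Sox9-GOF 2, HGG Sox9-GOF 3, EPN control 2, EPN control 3 or EPN Sox9-GOF 3 (limma adjusted p from 0.0581 to 0.0756), and with a correction for transcript GC content and length (-2.46, limma adjusted p = 0.0976). Summed astrocyte markers were higher, as Bmpr1b was, for the libraries labelled Sox9-LOF (72183 to 81514) than in HGG controls (11522 to 52347). With HGG Sox9-GOF they overlapped the controls, at 32968, 57278 and 123612, where Bmpr1b was 206, 368 and 511. They were lower, as Bmpr1b was, with EPN Sox9-GOF (9017 to 30898) than in EPN controls (40272 to 47183). Within both Sox9-GOF groups the libraries ranked alike for these markers and for Bmpr1b. In EPN controls the 2 rankings were opposite, and in the other groups they were neither alike nor opposite. In EPN, summed neuron markers were also lower with Sox9-GOF (2061 to 3521 against 5846 to 13064 in controls), as were oligodendrocyte precursor markers (3823 to 5073 against 7203 to 7567). No marker of these 3 lists was at 0 reads in any group, and their part in the Bmpr1b result was not tested. For Bmpr1a the same contrast gave -1.19 ± 0.33 (limma adjusted p = 0.0551), and -0.23 with that correction.

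**Figure D2:**
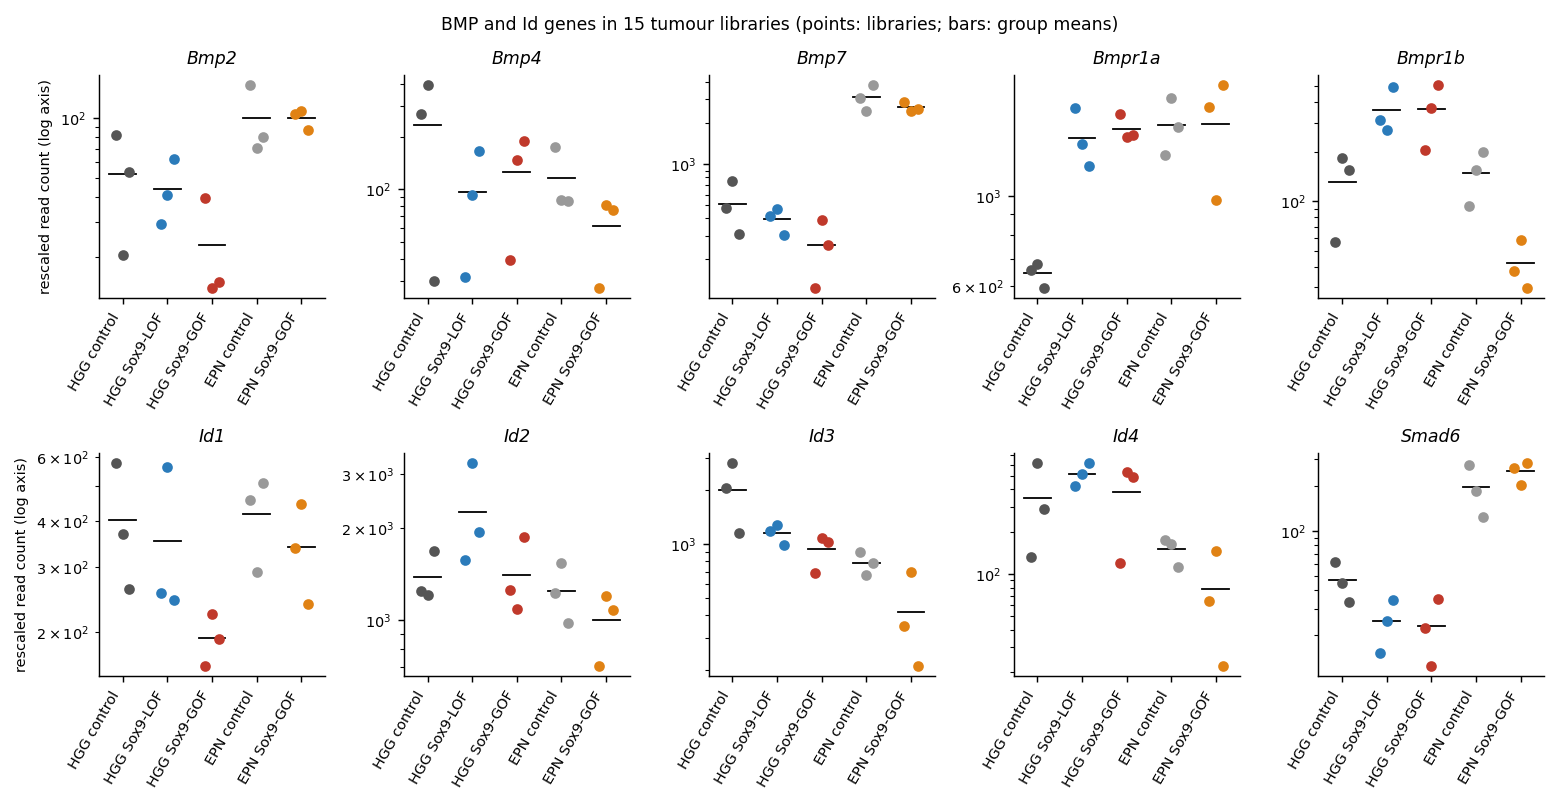
Rescaled read count (y axis, log scale) of each of the 10 genes in the 15 libraries (points) by group (x axis), with bars at the group means. Bmpr1a in HGG controls lies at 594 to 681, below all other groups, and Bmpr1b in EPN Sox9-GOF lies at 29.8 to 58.4, below all EPN controls.

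The balance of the 2 type I receptors was also read within each library, where the scale between libraries cancels. Per kilobase of transcript, Bmpr1b made up 8.70% to 23.0% of the sum of Bmpr1a and Bmpr1b in HGG controls (mean 18.1% ± 8.1, SD, n = 3). The mean was 22.6% ± 8.1 in the libraries labelled Sox9-LOF and 21.4% ± 8.2 with HGG Sox9-GOF, so in HGG the share overlapped the controls although both receptors were higher. It was 9.88% ± 2.84 in EPN controls and 3.48% ± 2.42 with EPN Sox9-GOF, 2 groups that did not overlap. The exact two-sided permutation test gave p = 0.1 for the EPN comparison, the smallest that 3 against 3 allows, and 0.4 after adjustment over 4 comparisons. In the other 3 comparisons the exact permutation p was 0.3 to 0.6.

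**Figure D3:**
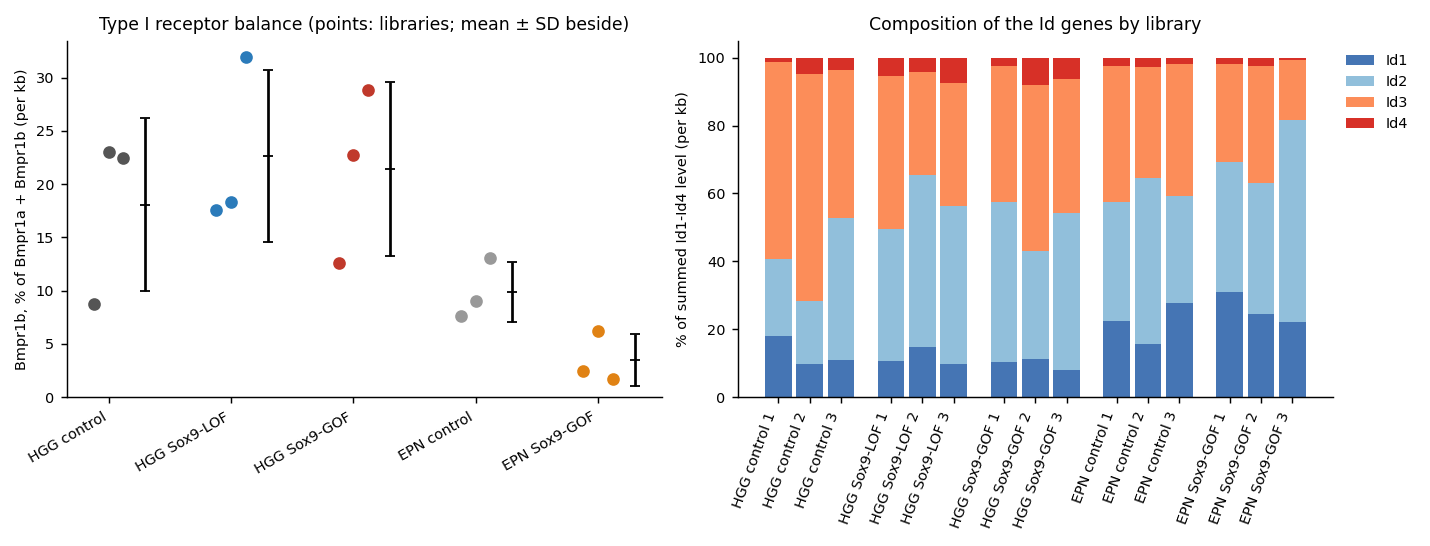
Left, Bmpr1b as a percentage of Bmpr1a plus Bmpr1b per kilobase (y axis) in each library (points) with mean ± SD beside them, by group (x axis); right, each library's summed per-kilobase level of Id1 to Id4 (y axis, percent) split by gene. The receptor share is lowest in EPN Sox9-GOF, at 3.48%, and Id3 makes up 56.2% of the Id sum in HGG controls and 27.1% in EPN Sox9-GOF.

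Smad6 (chr9:63953076-64022059, minus strand), whose product blocks the receptors and SMAD1, differed by tumour model. It was 61.9, 45.1 and 33.4 in HGG controls and 276, 185 and 124 in EPN controls. The EPN controls were all higher, by 2.01 ± 0.40 on the log2 scale or 4.01-fold (limma adjusted p = 0.0232). That call was lost without EPN control 1 (limma adjusted p = 0.0924) or EPN control 2 (0.106). Endothelial cells are known to express Smad6 strongly, and summed endothelial markers were 3898 to 5271 in EPN controls against 843 to 1922 in HGG controls (10 of 10 markers with reads in both). Their part in the Smad6 and Bmp7 differences was not tested, nor was that of fibroblast markers, which summed to 59108 to 98174 against 3171 to 16071. The fibroblast list of 10 genes holds Igf2 and Pdgfra, the latter also an oligodendrocyte precursor marker, and 1 abundant gene could set its sum. Microglia markers (15758 to 25763 against 6321 to 17878) overlapped between the 2 control groups, and oligodendrocyte precursor markers (7203 to 7567 against 14889 to 57418) did not. With Sox9 perturbed, Smad6 was 15.2, 25.0 and 34.5 in the libraries labelled Sox9-LOF and 22.2, 12.5 and 35.1 with HGG Sox9-GOF. These values overlapped the controls (log2 -0.92 ± 0.47 and -1.03 ± 0.50, limma adjusted p = 0.373 and 0.283). In EPN Sox9-GOF it was 263, 201 and 284 (log2 0.46 ± 0.32, limma adjusted p = 0.56).

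With the main settings, none of the 4 Id genes was called by limma in any of the 5 comparisons. Id3, per kilobase the most abundant of them in HGG controls on average (chr4:136143497-136145755, plus strand), stood at 2054, 2825 and 1144 there. It was 1182, 1278 and 985 in the libraries labelled Sox9-LOF and 690, 1077 and 1031 with HGG Sox9-GOF. Every Sox9-GOF library lay below every control, though HGG control 3 lay close to them, and the log2 difference of -1.01 ± 0.38 missed the threshold (limma adjusted p = 0.18). In EPN controls Id3 was 898, 672 and 786, below all HGG controls, a log2 difference of -1.27 ± 0.34 that just missed in limma (adjusted p = 0.0538) and passed in edgeR (0.0483) and DESeq2 (0.00374). Limma also called it with TMM scaling (adjusted p = 0.0483), with a spread shared by all 15 libraries (0.0297) and without HGG control 3 (0.0153). With EPN Sox9-GOF it was 348, 696 and 209, and 1 library overlapped the controls (log2 -1.03 ± 0.40, limma adjusted p = 0.296). Across the 5 groups the mean of Id3 ran from 418 in EPN Sox9-GOF through 785, 933 and 1148 to 2008 in HGG controls, with each group overlapping the next.

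Id1, the Id gene most often used as a readout of BMP signalling (chr2:152736251-152737410, plus strand), was lowest with HGG Sox9-GOF. It was 577, 369 and 261 in HGG controls and 161, 223 and 191 with HGG Sox9-GOF. These groups did not overlap, and the log2 difference of -0.98 ± 0.33 was not called by limma (adjusted p = 0.152) and was called by DESeq2 (adjusted p = 0.0469). The highest of the controls was HGG control 1, the control with the most choroid plexus markers, and without it the log2 difference was -0.69. For the libraries labelled Sox9-LOF it was 255, 562 and 244, which overlapped the HGG controls. EPN controls, at 457, 292 and 509, and EPN Sox9-GOF, at 338, 447 and 238, overlapped each other.

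Id2 is widely expressed in neural progenitors and glia. Its group means lay between 995 ± 257 (SD, n = 3) with EPN Sox9-GOF and 2260 ± 887 in the libraries labelled Sox9-LOF, where library 2 reached 3262. Each group overlapped the next in order, and the smallest limma adjusted p of Id2 with the main settings was 0.356. With a spread shared by all 15 libraries it was 0.194, in the libraries labelled Sox9-LOF. Id4, known for slowing neural progenitor differentiation, was 133, 617 and 289 in HGG controls, 422, 518 and 612 for the libraries labelled Sox9-LOF, and 121, 532 and 490 with HGG Sox9-GOF. Replicate 1 was low in both of the HGG control and Sox9-GOF groups. In EPN it was 175, 164 and 112 in controls and 64.2, 147 and 22.1 with Sox9-GOF, which overlapped (log2 -1.25 ± 0.63, limma adjusted p = 0.412). Between the controls limma did not call Id4 (log2 -0.95 ± 0.56, adjusted p = 0.278). Without HGG control 1 limma called it lower in EPN (log2 -1.51, adjusted p = 0.045).

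Summed per kilobase, the 4 Id genes reached 2708 ± 628 (SD, n = 3) in HGG controls, 2486 ± 685 for the libraries labelled Sox9-LOF, 1706 ± 350 with HGG Sox9-GOF, 1648 ± 101 in EPN controls and 1146 ± 373 with EPN Sox9-GOF. Each library drew most of this sum from Id2 and Id3. Id3 supplied 56.2% ± 11.8 in HGG controls, 37.2% ± 3.8 in EPN controls and 27.1% ± 8.5 with EPN Sox9-GOF. Id1 supplied 12.9% ± 4.5 in HGG controls and 22.0% ± 6.0 in EPN controls. Id4 was the smallest component throughout, at 0.622% to 8.01%. These shares are a description and were not tested.

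The genes whose levels followed each Id gene most closely over the 15 libraries differed from 1 Id gene to the next. For Id3 they were Phf21b (Pearson r = 0.968), Gal3st1 (0.951) and Tnfrsf21 (0.949), and for Id4 Prr18 (0.967), the neurotrophin receptor gene Ntrk2 (0.956) and the Wnt ligand gene Wnt7a (0.954). For Id2 they were Aqp9 (0.900), the metallothionein gene Mt2 (0.874) and Sphk1 (0.857), and for Id1 Nudt22 (0.868), 3110009E18Rik (0.844) and Pelo (0.835). The 15 libraries span 5 groups and 2 tumour models, so these correlations include differences between groups and are given as a description.

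Transcript base composition moved with the HGG differences. Across genes, log2 fold change and transcript GC content had a Spearman rho of -0.473 in the libraries labelled Sox9-LOF and -0.578 with HGG Sox9-GOF. It was -0.0084 for EPN Sox9-GOF, -0.246 between the controls and 0.411 for the difference of the Sox9-GOF effects. Genes are not independent replicates. Each gene's deviation from its mean over the 15 libraries gave a rho with GC of 0.21, 0.36 and 0.30 in the HGG controls. The libraries labelled Sox9-LOF gave -0.17, -0.075 and -0.12, and those with HGG Sox9-GOF -0.28, -0.29 and -0.23. Both sets were compared with these same HGG controls. The EPN libraries ranged from -0.11 to 0.15. The 2 receptors are low in GC (41.3% GC in Bmpr1a, 42.2% in Bmpr1b), whereas Smad6 has 60.8% and Id3 55.6%. With the correction for GC content and length, Bmpr1a went from 1.21 to 0.42 with HGG Sox9-GOF and from 1.09 to 0.49 in the libraries labelled Sox9-LOF. Bmpr1b went from 1.55 to 0.87 and from 1.56 to 1.05, and with HGG Sox9-GOF Smad6 went from -1.03 to -0.31, Id1 from -0.98 to -0.56 and Id3 from -1.01 to -0.54. All of these kept their direction. Whether base composition or the tumours set these differences was not tested.

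**Figure D4:**
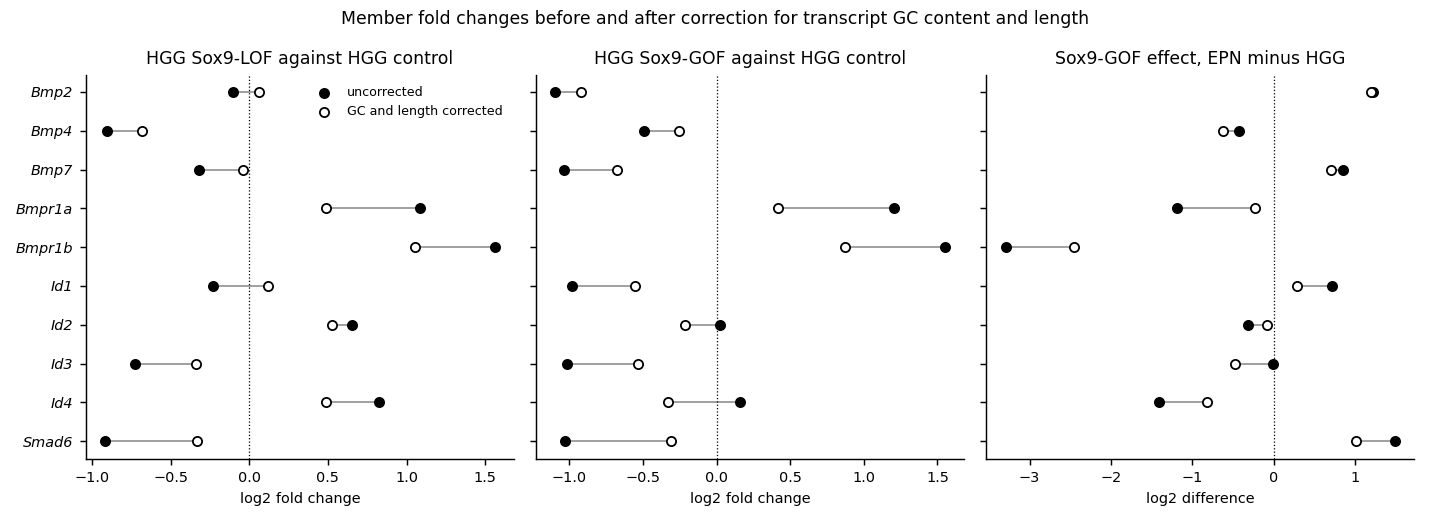
Log2 fold change (x axis) of the 10 genes (y axis) before (filled) and after (open) a correction for transcript GC content and length, in the libraries labelled Sox9-LOF, in HGG Sox9-GOF, and for the difference of the Sox9-GOF effects. Bmpr1a shrinks from 1.21 to 0.42 with HGG Sox9-GOF, and Bmpr1b from -3.30 to -2.46 in the difference of the effects.

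A wider list of 52 other pathway genes placed these 10 in context. Between the controls 18 of the 41 tested were called, 15 higher in EPN and 3 lower, beside 9.51% and 5.83% of all genes. The median of the 41 was 0.88 on the log2 scale, beside 0.0025 for all genes. By role, 2 of 4 ligands, 4 of 8 receptors and co-receptors, 5 of 10 transducers and inhibitors, 5 of 11 secreted antagonists and modulators, 1 of 5 other targets and 1 of 3 E protein genes were called. Leaving out EPN control 1, 2 or 3 left 6, 3 and 7 of the 18, and the replicate block left 10. The correction for GC content and length left 12, and 8 with the block added. Summed fibroblast markers (59108 to 98174 in EPN controls against 3171 to 16071) and endothelial markers (3898 to 5271 against 843 to 1922) moved with this list too, and their part in it was not tested.

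Among these, Zfp423, a zinc finger partner of BMP SMADs, stood at 81.6 ± 19.3 (SD, n = 3) in HGG controls and 1918 ± 198 in EPN controls (log2 4.56 ± 0.22, limma adjusted p = 0.000863). The inhibitory Smad7 stood at 213 ± 21 against 891 ± 62, a log2 difference of 2.06, and the pseudoreceptor gene Bambi was higher by 1.85. Of the other genes that restrain SMADs, Smurf2 was called (0.90), and Ski (0.67), Smurf1 (0.070) and Tob1 (-0.068) were not. The ligand gene Bmp6 was higher by 2.99 and Gdf5 by 2.62, the latter from 2.98 ± 1.54 to 23.4 ± 8.6. The SMAD target Msx2 was higher by 3.78, from 4.26 ± 1.88 to 81.5 ± 50.1, and the secreted modulator Fstl1 by 2.46. The call was lost in 4 of 15 alternatives for Msx2, 3 of 15 for Bmp6, 2 of 15 for Fstl1 and 6 of 14 for Gdf5. It was lost in 1 of 15 for Bambi and in 0 of 15 for Zfp423 and Smad7. Sostdc1, which encodes a secreted BMP and Wnt antagonist, was lower by 5.93, from 348, 902 and 134 in HGG controls to 1.06, 7.89 and 9.33 in EPN controls. It is also 1 of the choroid plexus markers, of which Otx2 had 0 reads in both EPN groups. Its highest control was HGG control 2, where these markers summed to 1050, of which Sostdc1 itself was 902. Its call was lost in 1 of 15 alternatives.

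**Figure D5:**
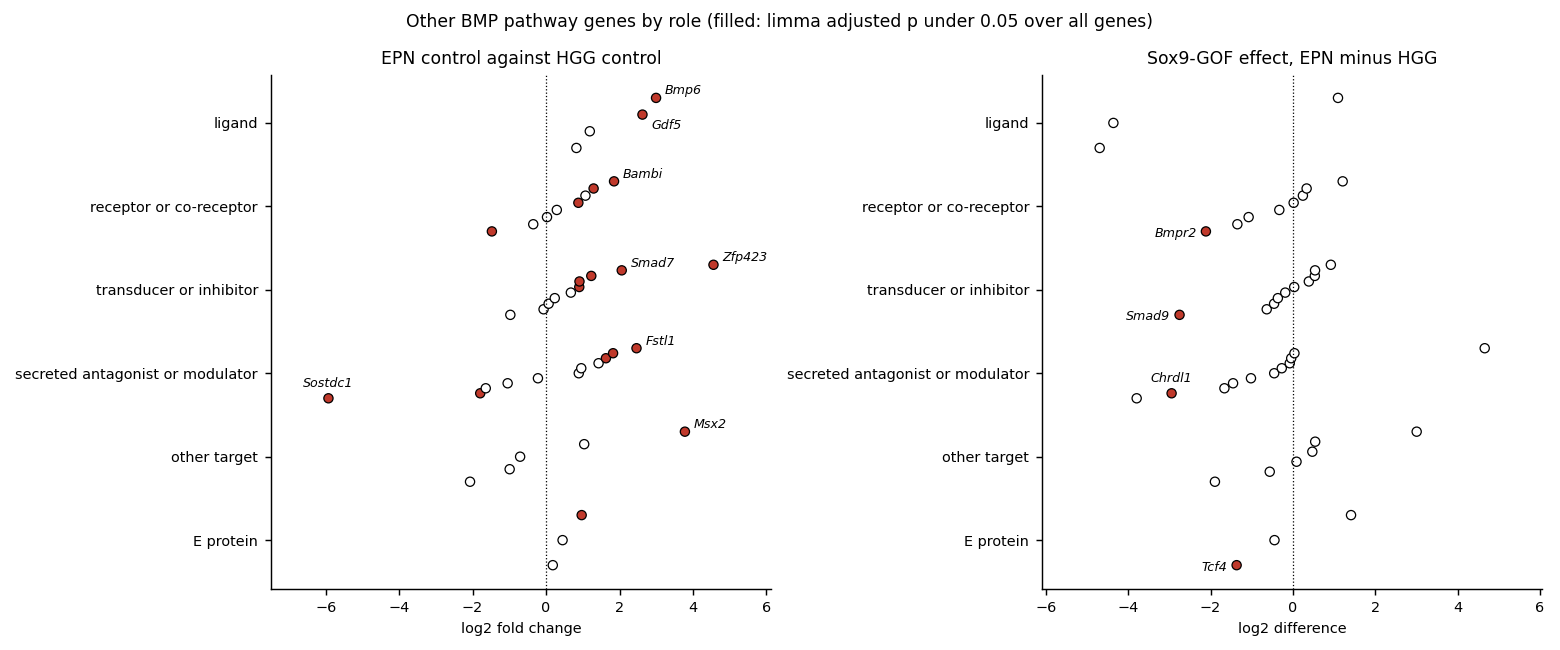
Log2 difference (x axis) of the other pathway genes tested, by role (y axis, 1 point a gene, spread vertically for legibility), between the controls (left) and between the Sox9-GOF effects (right); filled points passed limma at an adjusted p of 0.05 over all genes, and the largest are named. On the left 18 of 41 points are filled, 15 of them above 0, beside 15.3% of all genes called and 9.51% called higher. On the right 4 are filled, all below 0, beside 6.07% of all genes called and 3.23% called lower.

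In the Sox9 comparisons limma called 0 of 41 of the wider list in the libraries labelled Sox9-LOF, 0 of 41 with HGG Sox9-GOF and 0 of 40 with EPN Sox9-GOF. DESeq2 called 7, 8 and 2 (background 9.02%, 15% and 5.68%), and edgeR called 0 in each, with a background of 0% for limma and edgeR. In each, 10 had an unadjusted limma p under 0.05 (background 17.3%, 22.7% and 15.1%). Nothing about the list as a group is read from these counts. The 3 with the smallest p are given as values. Bmpr2, the type II receptor gene, was 379, 506 and 525 in HGG controls, 1587, 1210 and 1255 for the libraries labelled Sox9-LOF and 1214, 1388 and 1895 with HGG Sox9-GOF, with log2 differences of 1.52 ± 0.22 and 1.68 ± 0.24 (limma adjusted p = 0.138 and 0.0594). Acvrl1, the endothelial type I receptor gene, was lower in both, by log2 values of -1.41 and -1.47, and summed endothelial markers overlapped the controls in both. The remaining genes in HGG were Tcf4 at 0.90 in the libraries labelled Sox9-LOF and Sostdc1 at -4.57 with Sox9-GOF. In EPN Sox9-GOF they were the antagonist genes Chrdl1 at -1.82 and Nbl1 at -1.42, and Bmp6 at 0.70. The GC and length correction took Tcf4 from 0.90 to 0.13, and Bmpr2 from 1.52 to 0.65 in the libraries labelled Sox9-LOF and from 1.68 to 0.56 with HGG Sox9-GOF.

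The difference of the Sox9-GOF effects was called for 4 of 41, all lower in EPN than in HGG (background 3.23% lower, 6.07% in either direction). They were Chrdl1 (log2 -2.95), the BMP SMAD gene Smad9 (-2.75), Bmpr2 (-2.11) and the E protein gene Tcf4 (-1.37). As with Bmpr1b, Bmpr2 was higher in HGG Sox9-GOF than in HGG controls and lower in EPN Sox9-GOF (954, 537 and 1076) than in EPN controls (1102, 1102 and 1226). For Bmpr2 the EPN difference was small, at -0.43 ± 0.27 on the log2 scale (limma adjusted p = 0.513). Of these 4 calls, 0 were kept with the correction for GC content and length, and 0 without HGG Sox9-GOF 3, EPN control 2 or EPN control 3. The correction took Tcf4 to -0.13 and Bmpr2 to -0.64, but Chrdl1 only to -2.22 and Smad9 to -2.21. The Chrdl1 call was also lost with the replicate block (limma adjusted p = 0.0525), in edgeR (adjusted p = 0.0598) and with no minimum (limma adjusted p = 0.0567). Of 21 alternatives, 14 lost the call for Chrdl1, 11 for Smad9, 5 for Bmpr2 and 5 for Tcf4.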

How the data were processed

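Poly(A) RNA of mouse brain tumour tissue was sequenced from 15 libraries made with a stranded kit from 300 ng of total RNA, per the labels' protocols. The submitters' processing notes name the build mm10 and, without roles, DESeq2 1.30.1, STAR 2.5.0a, MultiQC 1.11 and FastQC 0.11.7. Which tool counted the reads, with what strand setting and gene models, is not given in the sources used here, and counts of overlapping or antisense genes are therefore uncertain. The authors deposited 3 tables of 6 libraries each, whose signal per gene is a read count divided by a size factor: 100% of values were whole multiples of 1 read within 0.001 read. Both HGG tables hold the same HGG control reads, and 6 empty columns and 0 sample columns were left unused. The 27 gene names turned into dates stayed in the tests.

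Because the values were normalized, the test was limma 3.58.1 (trended variance, R 4.3.3) on log2(normalized count + 1) of genes averaging 10 or more, with p-values adjusted by Benjamini-Hochberg over all genes tested and a threshold of 0.05. This scale understates the change of low genes. Fold changes within a table use its own scale, and printed levels and the comparison of controls use reads rescaled over all 15 libraries. Alternatives were edgeR 4.0.16 and DESeq2 1.42.0 on the recovered reads, TMM scaling, pseudocount 8, no minimum, a spread shared by all libraries, the replicate number as a block, a spline correction (5 degrees of freedom) for transcript GC content and length from GENCODE M21 (known for 98.4% of genes), and leaving out each library. The limma script was tested on simulated data. Exact permutation tests used SciPy 1.17.1.

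Same-numbered HGG Sox9-GOF and HGG control libraries deviated together (correlations of 0.18, 0.44 and 0.22, all over 0.1), so their numbers may pair them. In the other comparisons they did not in every pair. Titles gave the group and number of each library. Named were Sox9, the 10 genes, the called genes of the wider list (at most 8 by size, or the 3 with the smallest p where fewer than 3 passed), and the 3 nearest patterns of each Id gene. The genes and lists were chosen with earlier results of these data known.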

Additional observations from a re-analysis of the deposited data

Results flagged for a closer look

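For 5 genes the effect of Sox9-GOF in EPN and its effect in HGG differed by limma's test of the difference itself, with Benjamini-Hochberg adjustment over 15145 genes (background 6.07%). On the log2 scale, EPN minus HGG, the differences were -3.30 for Bmpr1b, -2.95 for Chrdl1, -2.75 for Smad9, -2.11 for Bmpr2 and -1.37 for Tcf4. The limma adjusted p was 0.0283, 0.0467, 0.0343, 0.0197 and 0.0197 in that order. The Bmpr1b call was lost without any 1 of 5 libraries (limma adjusted p from 0.0581 to 0.0756), and all 5 calls were lost with the correction for GC content and length.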

How the results depend on the processing

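Each group held 3 libraries, and the levels of Bmp2 and Smad6 rested on as few as 10 and 13 reads in a library. Of the alternatives other than leaving out a library, 577 of 639 gave the same direction and the same side of the threshold (17 changed sign, 18 became weaker and 27 stronger). Of those that left out a library, 431 of 509 did so (30 changed sign, 46 became weaker and 2 stronger). In the 3 Sox9 comparisons limma called 0 of all genes with the main settings, so staying uncalled there says little about stability. The causes of the changes were not tested.

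DESeq2 called 1 of the 10 genes and 1340 genes in all in the libraries labelled Sox9-LOF. With HGG Sox9-GOF it called 2 and 2263, in the EPN comparison 1 and 829, between controls 4358 in all, and for the difference of the Sox9-GOF effects 2 and 2454. A spread shared by all 15 libraries gave 1 and 1108, 2 and 2253, 129 in all with EPN Sox9-GOF, 4217 in all between controls, and 2 and 1511 for the difference of effects. With the replicate block, 1142 genes were called between controls (1073 with the GC and length correction added); elsewhere the block moved no count of the 10 genes unless that correction was added. The GC and length correction left 0 of the 10 and 106 in all for the difference of effects, and 0 and 1 with the block added.

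Under the GC and length correction, with or without the block, small log2 differences changed sign: Bmp2 to 0.061 and Id1 to 0.12 in the libraries labelled Sox9-LOF, Id2 to -0.21 and Id4 to -0.33 with HGG Sox9-GOF, Bmp7 to 0.0025 with EPN Sox9-GOF, and Bmpr1b to -0.077 between controls. Bmpr1a with EPN Sox9-GOF turned to -0.035 under TMM scaling and -0.032 under the shared spread. Id3 in the difference of effects turned to 0.00032 with pseudocount 8 and 0.22 with edgeR and with DESeq2. None of these was called.

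Leaving out each library in turn gave 0 to 6 genes called in all in the libraries labelled Sox9-LOF (6 without HGG control 2), 0 to 5 with EPN Sox9-GOF (5 without EPN control 1), 368 to 3633 between controls (3633 without HGG control 1, and 645, 368 and 698 without EPN control 1, 2 and 3), and 35 to 2095 for the difference of effects (35 without EPN control 3, 2095 without HGG control 3). Of the 10 genes, 1 to 4 were called between controls (1 without EPN control 2) and 0 to 1 for the difference of effects. Log2 differences that changed sign ranged as follows. In the libraries labelled Sox9-LOF, Bmp2 ranged from -0.64 to 0.32, Id1 from -0.63 to 0.060 and Bmp7 from -0.64 to 0.011. With HGG Sox9-GOF, Id2 ranged from -0.19 to 0.18, Id4 from -0.40 to 0.85 and Bmp4 from -1.63 to 0.22. With EPN Sox9-GOF, Bmpr1a ranged from -0.17 to 0.30 and Bmp2 from -0.089 to 0.44. Between controls, Bmpr1b ranged from -0.24 to 0.60, Bmp4 from -1.57 to 0.27, Id1 from -0.18 to 0.39 and Id2 from -0.32 to 0.0091. For the difference of effects, Bmp4 ranged from -1.14 to 0.71 and Id3 from -0.46 to 0.40. The Bmpr1b share of the type I receptors differed from HGG controls by -0.13 to 7.08 percentage points in the libraries labelled Sox9-LOF and by -1.37 to 7.69 with HGG Sox9-GOF.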
